A study of Mus musculus with 24 samples.

Results

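The Serpina3 cluster of the mouse is a run of closely related serpin genes on chromosome 12, and its members measured on 24 expression arrays of HC11 cells were Serpina3c, Serpina3f, Serpina3g, Serpina3h, Serpina3i, Serpina3k, Serpina3m and Serpina3n. These 8 genes were represented by 10 of the 55681 probes and were 8 of the 20156 gene symbols on the arrays. They were chosen by the gene that a probe's accession maps to, and the cluster itself was selected on a measured value, the log2 signal of Serpina3f, which was much higher in undifferentiated cells transfected with siPINC1/6 than in control cells. That comparison is therefore given as a description without a test. Serpina3f and Serpina3i each had 2 probes, the brighter of which stands for the gene, and the Serpina3g probe takes its name from a supplementary table of the study.

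HC11 is a mouse mammary epithelial cell line, grown here without (-LH) or with (+LH) lactogenic hormones, a mix of hydrocortisone, prolactin and insulin. In the study's methods insulin was already in the growth medium and in the medium to which prolactin and hydrocortisone were added. EGF was listed for the growth medium alone, and the methods do not state which medium the -LH cells had. Cells were transfected with 10 nM of a control siRNA (siNEG) or of siRNA against the long noncoding RNA PINC. The siPINC1/6 set was against mPINC1.0 and mPINC1.6, major splice forms that the labels shorten to PINC1 and PINC6. The siPINC set was against all PINC splice forms. In the study both sets were pairs, with an siRNA in common. Each siRNA group had n = 2 arrays in -LH and n = 3 in +LH cells. The other 9 arrays, all +LH and n = 3 per group, came from cells that carried the lentivirus LeGO with GFP alone (LeGO-GFP), with both of these splice forms (LeGO-1/6), or with a PINC mutant that lacks the most conserved regions (LeGO-DCR). The cells of all 9 groups were of 1 line, the LeGO cells had been transduced and passaged before the hormones, and how long the +LH cells of the arrays received hormones is not given in the sources used here.

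Serpins are protease inhibitors that offer a reactive centre loop as bait and trap the protease that cuts it in a covalent, inactive complex. The human genome has a single SERPINA3, which encodes alpha-1-antichymotrypsin, an acute phase plasma protein made chiefly by the liver, whereas the mouse has a whole row of Serpina3 genes that differ most in the reactive centre loop and hence in the proteases they may trap. Several of the mouse genes are induced by inflammatory cytokines, by STAT3 and NF-kB signalling and by glucocorticoids.

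The windows just before the transcription start are shown because Serpina3f, Serpina3g and Serpina3i, the members apart in the comparison by which the cluster was chosen, share one pattern of letters there that Serpina3n lacks. As this grouping rests on the values used for the choice, the shared pattern is a description and not a test. RefSeq gives windows of 250 bases before to 50 bases after the start in build GRCm38.p6 for 5 of the 8 members, namely Serpina3c, Serpina3f with 2 starts, Serpina3g, Serpina3i and Serpina3n. The 250 bases before the start are chr12:104214294-104214543 for Serpina3f, chr12:104235897-104236146 for Serpina3g, chr12:104262872-104263121 for Serpina3i and chr12:104406458-104406707 for Serpina3n, all on the plus strand. Capitals mark TTCNNNGAA, the letters that STAT proteins are known to bind.
Serpina3f: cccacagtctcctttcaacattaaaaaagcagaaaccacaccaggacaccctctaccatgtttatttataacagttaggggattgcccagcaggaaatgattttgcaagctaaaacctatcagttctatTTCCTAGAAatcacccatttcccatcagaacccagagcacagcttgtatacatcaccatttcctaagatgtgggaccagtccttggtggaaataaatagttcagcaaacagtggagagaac
Serpina3g: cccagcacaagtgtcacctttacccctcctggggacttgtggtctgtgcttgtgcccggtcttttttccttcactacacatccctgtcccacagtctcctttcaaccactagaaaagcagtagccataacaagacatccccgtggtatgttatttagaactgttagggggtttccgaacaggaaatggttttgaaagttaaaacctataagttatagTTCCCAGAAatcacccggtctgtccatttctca
Serpina3i: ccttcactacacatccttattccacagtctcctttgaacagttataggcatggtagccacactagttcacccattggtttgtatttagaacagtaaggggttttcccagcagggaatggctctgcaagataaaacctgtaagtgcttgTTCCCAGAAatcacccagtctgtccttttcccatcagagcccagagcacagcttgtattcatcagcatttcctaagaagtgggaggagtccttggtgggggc
Serpina3n: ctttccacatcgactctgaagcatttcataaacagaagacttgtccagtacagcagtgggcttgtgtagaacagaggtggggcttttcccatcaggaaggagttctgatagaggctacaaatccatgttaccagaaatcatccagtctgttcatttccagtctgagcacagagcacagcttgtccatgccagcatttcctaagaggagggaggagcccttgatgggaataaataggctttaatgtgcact
The pattern lay from -121 to -113 in Serpina3f, from -33 to -25 in Serpina3g and from -102 to -94 in Serpina3i, and it was in neither the Serpina3n nor the Serpina3c window. Counted on both strands of the 250 bases before the start, 7.02% of all 32851 windows held it. The other motifs were counted in the same bases. The letters AGAACA, one arm of the glucocorticoid receptor element, were in windows of Serpina3c, Serpina3f, Serpina3i and Serpina3n and in 16.1% of all windows. In Serpina3f they were only before the other start, whose window is not shown. A motif for NF-kB was in the windows of Serpina3g and Serpina3i and in 5.0% of all windows, and TTGCNNAA, a core of the C/EBP site, was in Serpina3f and in 9.56% of all windows. A run of 13 bases, cagagcacagctt, was in the windows of all 5 members and of 1 further gene, Olfr374, which makes 0.0213% of the windows. The run was sought in the whole windows, and in Serpina3g it lay after the start, outside the bases shown. Pairs of these 5 windows had 65.8% to 92.6% identical bases over their best local alignment. The lowest was for Serpina3f with Serpina3n and the highest for Serpina3c with Serpina3n. Serpina3f, Serpina3g and Serpina3i had 76.2% to 80.5% with each other, and 65.8% to 70.9% with Serpina3c or Serpina3n. How far the shared pattern goes with this likeness of the whole windows was not tested. A match of letters is a description of the sequence and not a site at which binding was measured.

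Between 24021 and 35798 probes per array were well above background, a mark set by the scanner software, and the highest number was on LeGO-1/6 replicate 1. The PINC probe had a mean log2 signal of 7.44 in siNEG -LH, 6.33 in siPINC1/6 -LH and 6.28 in siPINC -LH cells. In +LH cells it was 4.87 in siNEG, 5.06 on the arrays labelled siPINC1/6 and 4.37 in siPINC cells, where the probe was near background, so no fall was seen on the arrays labelled siPINC1/6 +LH. It was 13.44 in LeGO-1/6 and 6.07 in LeGO-GFP cells, and its 6.06 in LeGO-DCR cells checks nothing, as the part of PINC that the probe covers is not known here. Of 8 mammary epithelial markers, 7 were well above background on all 24 arrays, and the milk protein gene Csn2 on 15. Arrays were on 3 slides, with all -LH arrays, siNEG +LH replicate 1 and LeGO-GFP replicate 1 on slide 1, the other siRNA arrays on slide 2 and the other LeGO arrays on slide 3. P-values measure the spread between these cultures, and in bulk RNA fewer cells of a type and less RNA per cell cannot be told apart.

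In the text below a level is a log2 normalized signal, a difference is in log2 units, and levels are compared only for one probe between groups and never between probes. The members differed widely in where they were detected. Serpina3f was well above background on 22 of 24 arrays, Serpina3i on 21, Serpina3h on 19 and Serpina3g on 11, while Serpina3n was on 7, Serpina3m on 3, Serpina3c on 2 and Serpina3k on 1. The last 4 were well above background on no siRNA array, so no change of theirs can be followed there. Serpina3h, which RefSeq lists as a transcribed pseudogene, was the flattest of the detected members, with group means that stayed between 4.26 and 6.54.

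The mean Serpina3f level rose through the groups in 5 steps whose arrays did not overlap. It was lowest in siNEG +LH (4.52), siPINC +LH (4.93) and siNEG -LH (4.94) cells, whose arrays overlapped. Next came siPINC1/6 +LH (6.66) and siPINC -LH (6.75) cells, which also overlapped, and then siPINC1/6 -LH cells at 8.78. LeGO-DCR (11.56) and LeGO-GFP (11.64) cells overlapped far above these, and LeGO-1/6 cells were highest at 13.02. The Serpina3i probe had the same groups at the top, with 7.56 in siPINC1/6 -LH, 10.08 in LeGO-DCR, 10.26 in LeGO-GFP and 11.45 in LeGO-1/6 cells, of which LeGO-DCR and LeGO-GFP overlapped.

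**Figure D1:**
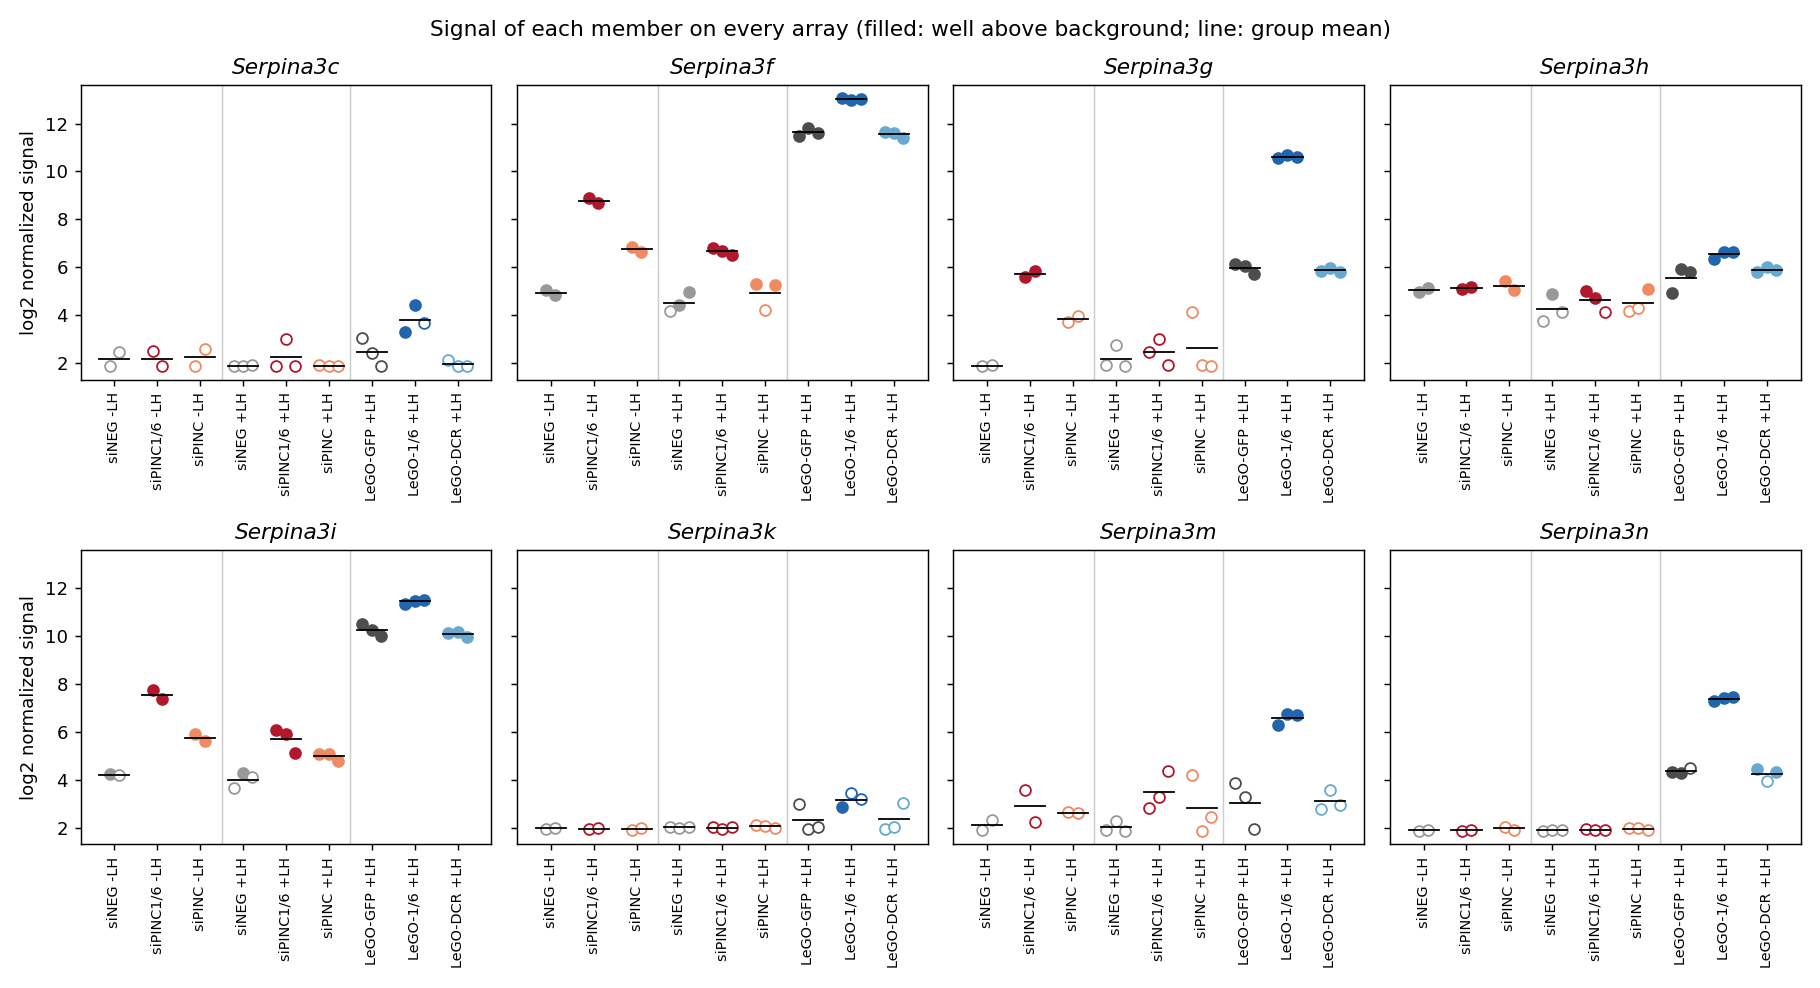
Log2 normalized signal of each of the 8 members on each of the 24 arrays, by group, with filled points for arrays on which the probe was well above background and open points for the others and lines for the group means. Serpina3f, Serpina3g and Serpina3i are high on the LeGO arrays and on the siPINC1/6 -LH arrays, and Serpina3m is well above background on the 3 LeGO-1/6 arrays alone.

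Overexpression of PINC was compared with the GFP virus to ask how the cluster follows PINC in hormone-treated cells. In LeGO-1/6 cells 7 of the 8 members were higher than in LeGO-GFP cells and none was lower, at an adjusted p under 0.05 in limma, where 14.5% of all probes were called higher. The median difference of the 8 members was 1.36, and that of all probes was -0.01. Serpina3k was the member that did not pass.

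Serpina3g, an intracellular inhibitor of lysosomal cysteine proteases known from T cells, rose most. Its levels were 6.13, 6.05 and 5.71 on the LeGO-GFP arrays and 10.57, 10.67 and 10.60 on the LeGO-1/6 arrays. The groups lay far apart, and the difference was 4.65 ± 0.11 (SE), or 25.1-fold, with an adjusted p of 2.49e-07.

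Serpina3m, a member expressed in liver, was 3.87, 3.28 and 1.95 in LeGO-GFP cells, not well above background on any array, and 6.28, 6.77 and 6.70 in LeGO-1/6 cells, well above background on all 3. A group that is nowhere well above background gives only a bound. For it, the bright group's mean is set against a floor for the dim group, the mean over its arrays of the larger of 2 values, the dimmest signal still well above background on that array and what the probe itself read. By this rule Serpina3m was at least 5.86-fold higher in LeGO-1/6 cells, and the difference in the fit had an adjusted p of 0.000868.

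Serpina3n, the inhibitor of granzyme B, leukocyte elastase and cathepsin G that is the member best known from acute inflammation and from reactive astrocytes, was 4.35, 4.31 and 4.50 in LeGO-GFP cells, with the last not well above background. In LeGO-1/6 cells it was 7.27, 7.44 and 7.48. It rose by 3.01 ± 0.14, or 8.06-fold, with an adjusted p of 3.9e-06, and no arrays of the groups overlapped. The calls of Serpina3n, Serpina3g and Serpina3m held in all 19 alternatives, but the sizes depended on the processing. Across those the differences ran from 1.43 to 3.07 in Serpina3n, 3.72 to 4.74 in Serpina3g and 1.17 to 3.97 in Serpina3m.

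Serpina3f, an inhibitor of trypsin-like and elastase-like proteases, was already among the brighter signals of LeGO-GFP cells, at 11.48, 11.83 and 11.60. It was 13.05, 12.98 and 13.03 in LeGO-1/6 cells, a rise of 1.39 ± 0.11, or 2.62-fold, with an adjusted p of 4.32e-05. Serpina3i, its neighbour beyond Serpina3g and Serpina3h, went from 10.49, 10.25 and 10.02 to 11.36, 11.47 and 11.52, a rise of 1.19 ± 0.12, or 2.29-fold, with an adjusted p of 0.000235. In both genes every LeGO-1/6 array lay above every LeGO-GFP array.

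The second probe of Serpina3i gave a much larger rise than the first. It was 5.26, 5.15 and 4.93 in LeGO-GFP and 8.91, 8.90 and 8.72 in LeGO-1/6 cells, which is 3.73, or 13.2-fold, with an adjusted p of 2.49e-06. The second probe of Serpina3f, not well above background in LeGO-GFP cells, was 4.49, 5.26 and 5.01 in LeGO-1/6 cells, at least 1.83-fold higher, with an adjusted p of 0.026. The cluster genes are close copies of one another and probe sequences were not used here, so how far a probe also reads another member's RNA was not tested.

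The rises of Serpina3h and Serpina3c were smaller and less firm. Serpina3h was 4.92, 5.91 and 5.82 in LeGO-GFP and 6.36, 6.64 and 6.62 in LeGO-1/6 cells, 1.99-fold higher with an adjusted p of 0.0215. That call was lost in 4 of 19 alternatives. These were without LeGO-1/6 replicate 2 (adjusted p 0.0686) and without LeGO-1/6 replicate 3 (adjusted p 0.0678). The others were a term for the slide (0.68, adjusted p 0.0943) and the methods' t-test (adjusted p 0.128). Serpina3c, a kallikrein-binding serpin, was 3.05, 2.43 and 1.89, all not well above background, against 3.28, 4.43 and 3.67, of which the first 2 were well above background. Its bound was under 1 and gives no fold, and its adjusted p of 0.0278 became 0.0760 without LeGO-GFP replicate 2, 0.0806 without LeGO-GFP replicate 3, 0.0703 without LeGO-1/6 replicate 2 and 0.0621 without LeGO-1/6 replicate 3. In all, 8 of 18 alternatives lost the Serpina3c call, among them normexp, the methods' t-test, the replicate block and the series matrix. Serpina3k, the kallikrein-binding protein of plasma also studied as an inhibitor of vessel growth, was well above background on LeGO-1/6 replicate 1 alone, the array with the most detected probes, and its adjusted p was 0.173.

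In LeGO-DCR cells, which carry the mutant, no member passed the test against LeGO-GFP cells. The counts were 0 of 8 by limma's adjusted p, 0 of 8 at an unadjusted p under 0.05 and 0 of 8 by the methods' t-test. Over all probes, limma called 0.0736%, and 4.52% had an unadjusted p under 0.05. Differences ran from -0.50 in Serpina3c to 0.35 in Serpina3h, and that of Serpina3f was -0.08 ± 0.11. The second Serpina3f probe lay apart, at 5.06, 3.90 and 5.25 in LeGO-DCR cells, at least 1.6-fold higher, but its adjusted p was 0.814.

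Set against LeGO-DCR directly, 6 of the 8 members were higher in LeGO-1/6 cells, and 14.5% of all probes were. Serpina3g was higher by 4.73 (adjusted p 2.34e-07), and Serpina3n by 3.15 (adjusted p 3.19e-06). Serpina3m was at least 7.22-fold higher (adjusted p 0.000973), and Serpina3c at least 1.04-fold (adjusted p 0.00651). Serpina3f was higher by 1.46 (adjusted p 3.28e-05) and Serpina3i by 1.36 (adjusted p 0.000116). The second Serpina3f probe had means of 4.92 in LeGO-1/6 and 4.73 in LeGO-DCR cells, on arrays that overlapped. For the second Serpina3i probe the means were 8.84 and 5.23, on arrays that did not overlap. Serpina3h, with a difference of 0.64, and Serpina3k, with 0.82, did not pass, with adjusted p-values of 0.114 and 0.189.

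**Figure D2:**
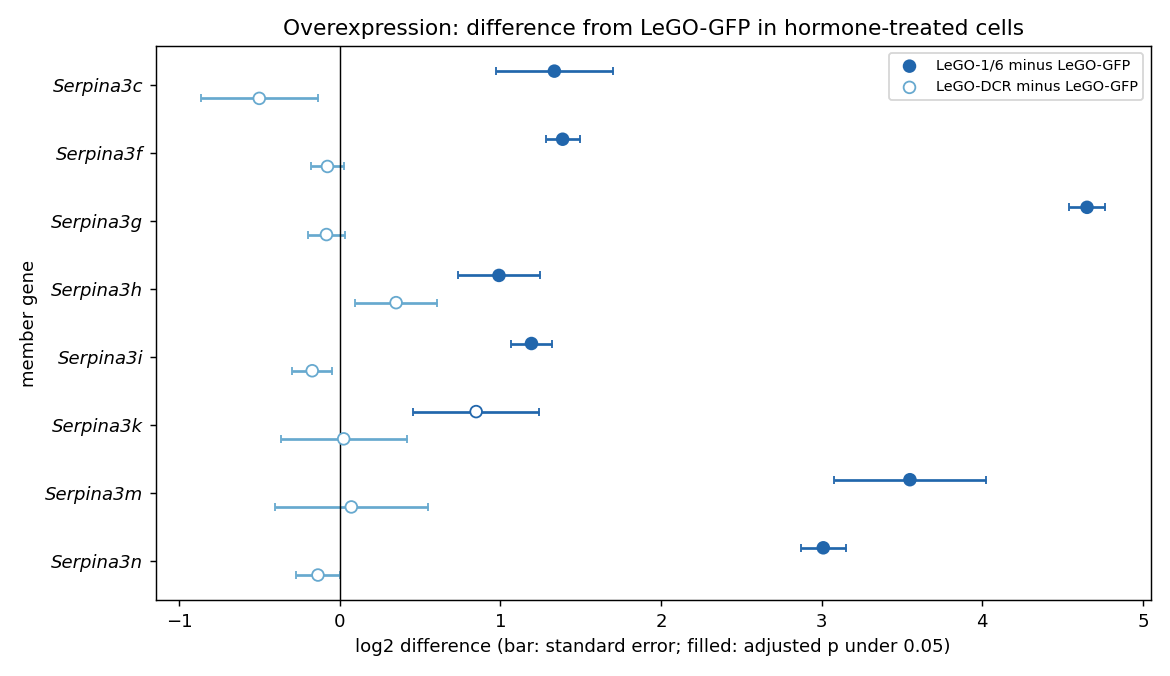
Log2 difference, with its standard error as the bar, of each member in LeGO-1/6 and in LeGO-DCR cells against LeGO-GFP cells (+LH, n = 3 arrays per group), with filled points for an adjusted p under 0.05 in limma. The LeGO-1/6 differences reach from 0.85 in Serpina3k, the 1 open point among them, to 4.65 in Serpina3g, while the LeGO-DCR differences lie between -0.50 and 0.35.

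Knockdown in hormone-treated cells used no array of the comparison that singled the cluster out. In the cells labelled siPINC1/6 +LH 2 of the 8 members, Serpina3f and Serpina3i, were higher than in siNEG +LH cells, where 2.09% of all probes were called higher, and no member was lower. The median difference over the members was 0.37. Serpina3f was 4.18, 4.44 and 4.95 in siNEG and 6.81, 6.68 and 6.49 in siPINC1/6 cells, 2.14 ± 0.33 or 4.39-fold higher with an adjusted p of 0.0171. Serpina3i was 3.65, 4.28 and 4.11 in siNEG and 6.08, 5.92 and 5.12 in siPINC1/6 cells, 1.70 ± 0.28 or 3.24-fold higher with an adjusted p of 0.0216. In both genes the 3 siPINC1/6 arrays lay above the 3 siNEG arrays, of which 2 were well above background for Serpina3f and 1 for Serpina3i.

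Neither direction changed in any alternative, but the 2 calls were not firm. Both were lost by the methods' t-test (adjusted p 0.0577 for Serpina3f and 0.165 for Serpina3i) and with the replicate number as a block (0.0642 and 0.0678). Both held without siPINC1/6 +LH replicate 3, and without any 1 of the siPINC +LH arrays. Without siNEG +LH replicate 1, the adjusted p of Serpina3f was 0.0633 and that of Serpina3i 0.0693. Without replicate 2 of that group they were 0.0748 and 0.0555, and without its replicate 3 Serpina3i alone was lost, at 0.0535. Leaving out siPINC1/6 +LH replicate 1 gave 0.0726 and 0.0731, and leaving out its replicate 2 gave 0.0658 and 0.0808. The sizes also shrank, to 0.86 and 0.59, under normexp background correction with an offset of 50, where both calls held, and the series matrix gave 1.36 and 1.11.

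The other members gave values that did not pass. Serpina3m was 1.47 higher in siPINC1/6 +LH cells with an adjusted p of 0.359, and not well above background on any of these arrays. Differences were 0.37 for Serpina3c, 0.36 for Serpina3h, 0.28 for Serpina3g, 0.02 for Serpina3n and -0.02 for Serpina3k. The second probes, both below background here, were -0.84 for Serpina3f and -0.13 for Serpina3i.

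With siPINC in hormone-treated cells, 0 of the 8 members were called by limma, against 0.681% of all probes. By the methods' t-test there were also 0. At an unadjusted p under 0.05 there was 1 of 8, beside 10.1% of all probes. It was Serpina3i, at 5.07, 5.08 and 4.79, above all siNEG +LH arrays by 0.97 with an adjusted p of 0.272. Serpina3f was 5.32, 4.22 and 5.27, within reach of the siNEG arrays, and its difference of 0.41 had an adjusted p of 0.725. The siRNA sets were then compared directly, with 0 of 8 members called against 0.914% of all probes, and 0 by the methods' t-test after adjustment. At an unadjusted p under 0.05 there were 2 of 8, beside 9.84% of all probes. Serpina3f was 1.73 ± 0.33 higher with siPINC1/6 than with siPINC, on arrays that did not overlap, with an adjusted p of 0.0851. Serpina3i was 0.73 higher with an adjusted p of 0.44, so a difference between the siRNA sets did not pass the test for either gene.

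**Figure D3:**
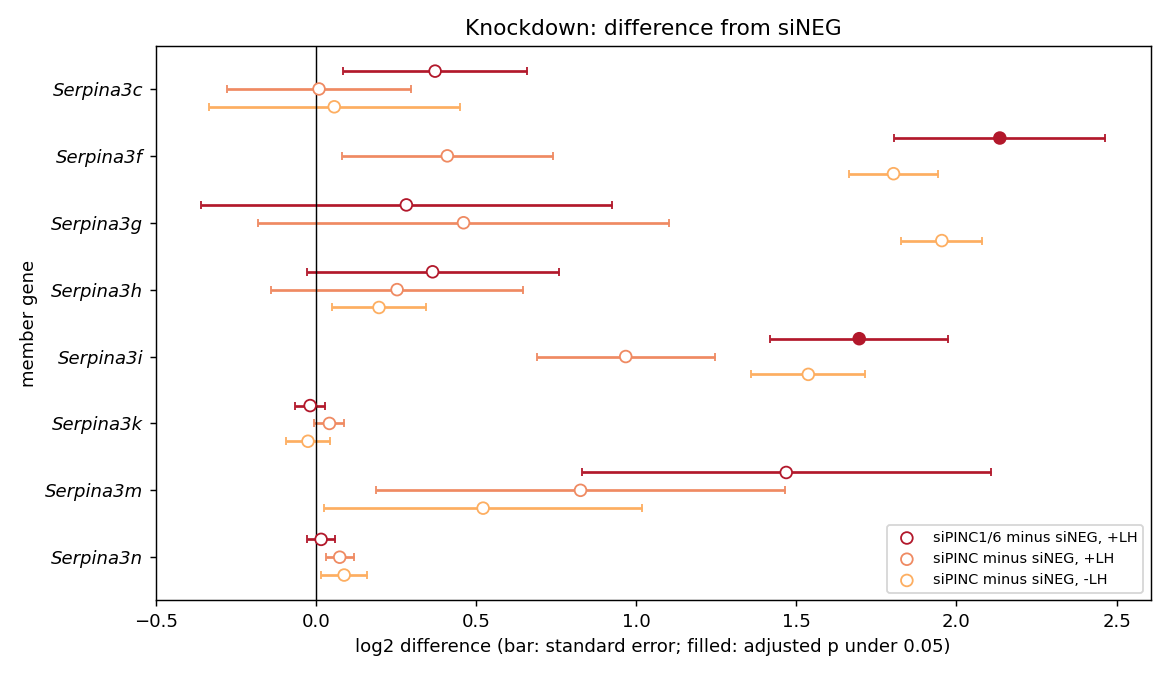
Log2 difference from siNEG cells of each of the 8 members, with its standard error as the bar, for siPINC1/6 +LH, siPINC +LH and siPINC -LH cells, with filled points for an adjusted p under 0.05 in limma. The 2 filled points are Serpina3f at 2.14 and Serpina3i at 1.70 in siPINC1/6 +LH cells, and the siPINC -LH points of Serpina3f, Serpina3g and Serpina3i lie between 1.54 and 1.95 without passing.

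Without hormones Serpina3f, Serpina3g and Serpina3i were higher with siPINC1/6 than with siNEG or siPINC, and the comparison with siNEG is the one that singled the cluster out and carries no test. Serpina3f was 5.05 and 4.83 in siNEG and 8.88 and 8.67 in siPINC1/6 cells, a difference of 3.84. Serpina3i went from 4.26 and 4.19 to 7.74 and 7.37, a difference of 3.34. Serpina3g was 1.88 and 1.90, not well above background, and 5.61 and 5.83 with siPINC1/6, at least 3.13-fold higher. In these 3 of the 8 genes the groups did not overlap and lay more than 1 log2 unit apart, as 2.09% of all probes did. Serpina3h differed by 0.11, Serpina3m by 0.81 below background, and the second probe of Serpina3f, well above background on no -LH array, by -0.07. Markers of other cell types also differed between these groups, and their part was not tested. The immune marker S100a8 had means of 6.03 in siNEG and 8.23 in siPINC1/6 cells, while the summed linear signal of the other 9 immune markers was 3457 to 3515 and 2816 to 2925. The summed signal of 4 fibroblast markers was 674.7 to 707.5 in siNEG and 368.1 to 388.2 in siPINC1/6 cells, and that of 10 hepatocyte markers 782.9 to 956.1 and 706.3 to 727.7. The fall of the fibroblast sum mostly follows Col1a1, with means of 8.73 and 6.94. Pdgfra (6.83 and 5.81) and Dcn (4.88 and 3.98) were also lower, while Col1a2 (6.93 and 7.51) was higher. The hepatocyte sum mostly follows Apoa2, whose mean over the 24 arrays was 9.51.

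With siPINC in undifferentiated cells, a comparison that shares its siNEG arrays with the one above, limma called 0 of the 8 members and 0% of all probes. The methods' t-test called 0 members after adjustment, and 3 of 8 were higher at an unadjusted p under 0.05, as were 4.85% of all probes. Serpina3f was 6.86 and 6.64, above both siNEG arrays and 3.49-fold higher in the mean with an adjusted p of 0.139. Serpina3i was 5.92 and 5.60, higher by 1.54 ± 0.18 with an adjusted p of 0.180. Serpina3g was 3.72 and 3.97, higher by 1.95 with an adjusted p of 0.139, but well above background on no array of either group. The same 3 genes thus had levels between siNEG and siPINC1/6, and without a test Serpina3f was 2.03 higher, Serpina3i 3.48-fold higher and Serpina3g at least 3.38-fold higher with siPINC1/6 than with siPINC.

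The effect of the hormones was read within each siRNA, where nearly all +LH arrays were on other slides than the -LH arrays. In siNEG cells limma called 0 of the 8 members, and the methods' t-test also called 0 after adjustment, while limma called 27.1% of all probes. The Serpina3f difference was -0.42 ± 0.32 with an adjusted p of 0.428. On slide 1 alone, where 1 siNEG +LH array stands against the 2 -LH arrays, it was -0.76 with an adjusted p of 0.0465 and 2 of 8 members were called, as were 24% of all probes, in a comparison added after the data were seen.

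In siPINC cells Serpina3f was the 1 of 8 members called lower with hormones, where 14.6% of all probes were called lower. It went from 6.86 and 6.64 to 5.32, 4.22 and 5.27, with no overlap, and was 3.51-fold lower with an adjusted p of 0.00118. Serpina3i fell short of the threshold, with a difference of -0.78 and an adjusted p of 0.062, and Serpina3g with -1.20 and 0.188. The second Serpina3i probe was called, at -1.09 and an adjusted p of 0.0343, but was well above background on none of these arrays. With a term for the slide the Serpina3f difference was -2.33 and 3 of 8 members were called beside 20.7% of all probes, while by the methods' t-test its adjusted p was 0.109 and 0 were.

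In siPINC1/6 cells, whose -LH arrays singled the cluster out, Serpina3f was 4.34-fold lower with hormones, Serpina3i differed by -1.85, and Serpina3g was at least 3.03-fold lower, all without a test. Whether the siPINC effect itself differed between +LH and -LH cells was tested by an interaction term, which called 0 of 8 members and 0.503% of all probes. The term was -1.39 for Serpina3f with an adjusted p of 0.378.

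For the brighter probes of Serpina3f and Serpina3i the widest gap between groups lay between the virus-carrying and the siRNA-transfected cells. This did not hold for every member. The Serpina3g arrays of siPINC1/6 -LH (5.61 to 5.83) and LeGO-DCR (5.81 to 5.98) cells overlapped, with those of LeGO-1/6 (10.57 to 10.67) far above. In LeGO-GFP cells 5 of the 8 members lay more than 1 log2 unit above siNEG +LH cells with no overlap, as did 4.05% of all probes. Serpina3f had means of 11.64 and 4.52, Serpina3i of 10.26 and 4.01, and Serpina3h of 5.55 and 4.26, with 2, 1 and 1 of the 3 siNEG +LH arrays well above background. The second Serpina3f probe had means of 3.45 and 3.44. It was well above background on no array of either group, so no gap could be read from it. The second Serpina3i probe had means of 5.12 and 3.05, and was well above background on all 3 LeGO-GFP arrays and on 0 siNEG +LH arrays. Serpina3g (5.96 and 2.18) and Serpina3n (4.39 and 1.89) were well above background on no siNEG +LH array, so they were at least 3.34-fold and at least 1.12-fold higher. On the 1 slide that holds an array of each group, the siNEG array was well above background for none of the 5, and the bounds were at least 88.3-fold for Serpina3f, at least 44.5-fold for Serpina3i and at least 2.16-fold for Serpina3g, with none to give for Serpina3n and Serpina3h. Virus, passage, transfection and experiment cannot be told apart here, and no test was made.

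Across all 24 arrays the brighter probes of Serpina3f and Serpina3i followed each other closely, with a Pearson r of 0.992 between their log2 levels. Serpina3g had an r of 0.899 with Serpina3f and 0.905 with Serpina3i, and Serpina3n had one of 0.923 with Serpina3g. The second Serpina3i probe was more like Serpina3n, at 0.963, and Serpina3g, at 0.952, than like the first Serpina3i probe, at 0.872. The second Serpina3f probe, well above background on 5 arrays, had an r of 0.59 with the first Serpina3f probe. With the first Serpina3i probe its r was 0.626. These arrays share groups, slides and normalization, and large gaps between groups alone give high values. The figures are therefore descriptions of 24 arrays in 9 groups.

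By the same measure over 24 arrays, the genes most like Serpina3f outside the cluster were Ccdc9b (0.992), Orm1 (0.985) and Saa2 (0.982). Orm1 and Saa2 encode acute phase plasma proteins. For Serpina3i they were Ccdc9b (0.989), Arhgef3 (0.987) and Saa2 (0.981), and for Serpina3h Serpinb6c (0.927), Gm13304 (0.920) and Hpca (0.918).

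**Figure D4:**
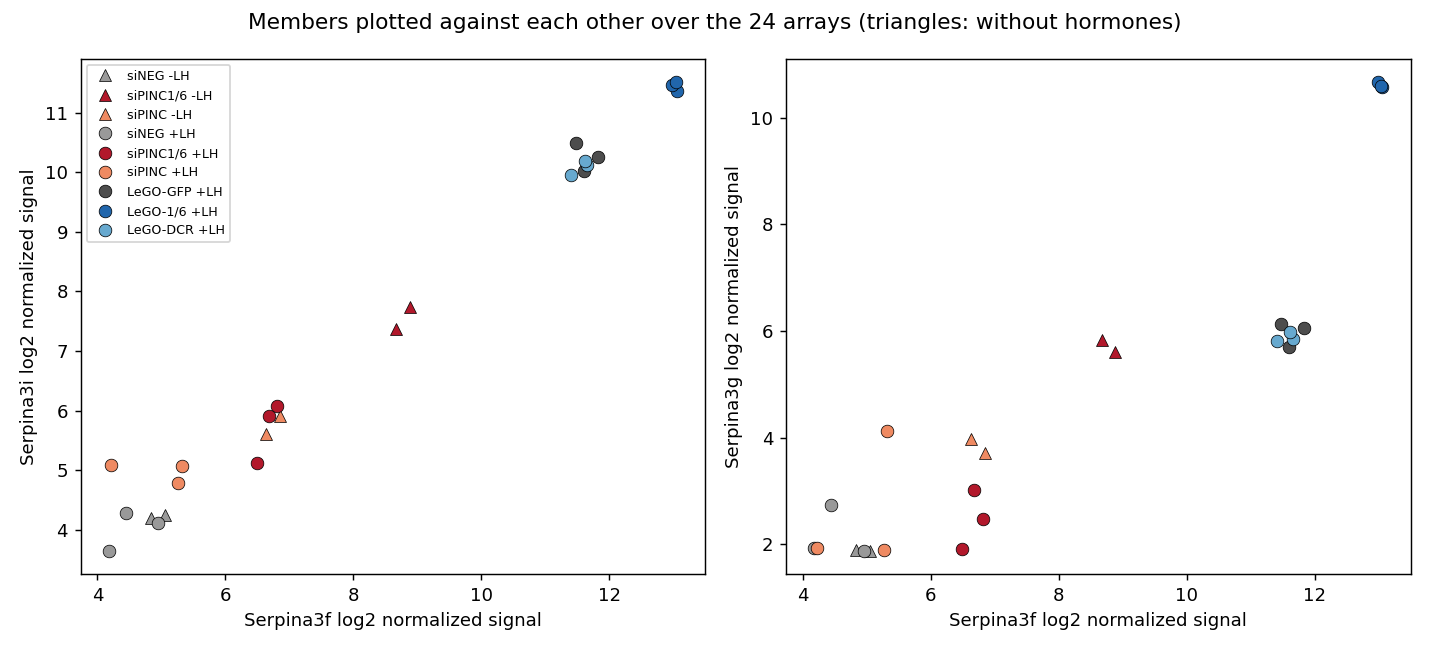
Log2 normalized signal of Serpina3i (left) and of Serpina3g (right) against that of Serpina3f on each of the 24 arrays, coloured by group, with triangles for -LH and circles for +LH arrays. Serpina3i rises with Serpina3f through the groups (r = 0.992), while Serpina3g stays near background on the siRNA +LH arrays and is highest on the 3 LeGO-1/6 arrays.

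The genes around the members moved in both directions. As a yardstick for the list counts, limma called 16857 of the 55681 probes in LeGO-1/6 against LeGO-GFP cells, 47.9% of them higher. In siPINC1/6 against siNEG +LH cells it called 2140 probes, 54.4% of them higher. Of 20 further clade A serpins and chromosomal neighbours measured, 1 rose and 4 fell in LeGO-1/6 against LeGO-GFP cells, with a median difference of -0.16. The one that rose was Serpina3b, within the same run of genes, by 0.64 with an adjusted p of 0.0131, named after its values were seen. Serpina3a and Serpina3j, also in the run, were well above background on 0 arrays. Among those that fell were Clmn (-3.88), Ifi27l2a (-2.33) and Dicer1 (-1.37). In siPINC1/6 against siNEG +LH cells 0 rose and 2 fell. Of 20 serpins of other clades, 9 rose and 5 fell in LeGO-1/6 cells, among them the plasminogen activator inhibitor Serpinb2, at least 10.9-fold higher, and the protease nexin Serpine2, higher by 2.96, while Serping1, the C1 inhibitor, fell by 3.01. With siPINC1/6 +LH 1 of these 20 rose, Serpinb1a by 0.76.

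Among 16 proteases of the families that Serpina3 proteins trap, 3 rose and 4 fell in LeGO-1/6 cells. The tissue kallikreins, serine proteases that cut kininogen among other proteins, fell, with Klk1b26 at least 38.0-fold lower, Klk1 at least 13.5-fold lower and Klk1b22 at -3.53, while the lysosomal cysteine protease Ctsl rose by 1.47. Klk1b26 also had the largest of the 3 falls, with 0 rises, in siPINC1/6 +LH cells, where it fell by 2.07 with an adjusted p of 0.00131, with Klk1 at -1.68 and Klk1b22 at -1.43. Kallikreins are a gene family of close copies too, and the 3 probes may share RNA. With hormones, Klk1 was at least 8.91-fold higher in siNEG and at least 8.32-fold higher in siPINC cells.

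Of 25 cytokines and transcription factors known as regulators of acute phase serpins, 12 rose and 9 fell in LeGO-1/6 cells, led by Il6, the main inducer of the acute phase, which was higher by 3.55 ± 0.18 with an adjusted p of 6.12e-06, and by Lif of the same family, higher by 3.09. The median difference of the 25 in LeGO-1/6 cells was 0.14, and 20 of them were well above background on all 24 arrays. In siPINC1/6 +LH cells 3 rose and 2 fell. Il6 was at least 2.75-fold higher there (adjusted p 0.0114), Socs3, a STAT3 target and inhibitor, rose by 0.55, and Stat5a, which carries the prolactin signal, fell by 0.40. With siPINC +LH none of the 25 passed. With hormones Il6 was at least 23.7-fold lower in siNEG and at least 32.3-fold lower in siPINC cells, while Nfkbia, an inhibitor of NF-kB, rose by 1.66 in both.

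Glucocorticoid targets rose with the hormones, in 9 of 12 with 2 lower in siNEG cells and in 9 of 12 with 1 lower in siPINC cells, such as Tsc22d3 by 3.93 and 3.90. In LeGO-1/6 cells 3 of them rose and 7 fell, with Zbtb16 at -2.02 and Mt2 at 1.53, and 0 of 12 passed in siPINC1/6 +LH cells. Of 17 interferon-stimulated genes, 12 rose and 1 fell in LeGO-1/6 cells, with Rsad2 higher by 3.33 and Cxcl10 by 2.86, and 11 rose and 0 fell in siPINC1/6 +LH cells, with Isg15 higher by 1.49 and Ifit1 by 1.19. Their medians, 0.88 and 0.71, stood beside -0.01 for all probes in both comparisons. Without hormones the median of the list was negative with both siRNA sets, and any part of these genes in the Serpina3 levels was not tested. With siPINC 0 of the 17 had a positive difference and the median was -0.67, with none called, and with siPINC1/6, untested, 5 of 17 had one and the median was -0.58. None of these lists held a gene that passed in LeGO-DCR against LeGO-GFP cells.

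Markers of the cell itself and of other cell types moved in LeGO-1/6 cells as well. Of 8 mammary epithelial markers 0 rose and 7 fell, with Elf5 at -5.47, Csn2 at least 7.24-fold lower and Krt5 at -2.76, and their summed linear signal was 101200 to 104900 in LeGO-GFP and 46620 to 49530 in LeGO-1/6 cells. Of 10 immune cell markers S100a8 rose by 6.54, and Itgam (-0.59) and Cd3e (-0.41) fell. Lyz2 was called higher but was well above background on no LeGO-GFP array. It had no bound to give, as its mean of 3.96 in LeGO-1/6 cells did not exceed the LeGO-GFP floor. The summed signal of the 10 went from 3887 to 5594 up to 10170 to 11070, and that of the 9 without S100a8 from 3810 to 5525 to 3182 to 3844. Of 10 hepatocyte markers 0 rose and 2 fell, the summed signal went from 981.7 to 1119 down to 426.5 to 468.4, and Alb, Apoa1, Ttr and Ahsg were well above background on 0 arrays. Of 4 fibroblast markers 1 rose and 1 fell, and the summed signal went from 9350 to 11870 down to 753.7 to 863.2. That sum mostly follows Dcn, by far the brightest of the 4 in LeGO-GFP cells (mean 13.34), which fell by 4.62. Pdgfra rose by 0.96, and Col1a1 (0.42) and Col1a2 (0.24) had positive differences that did not pass. Of 3 endothelial markers none passed and of 2 adipocyte markers Adipoq was called higher, although none of the 24 arrays had it well above background. In siPINC1/6 +LH cells 2 mammary markers rose and 3 fell, 1 fibroblast marker fell, and no immune, hepatocyte, endothelial or adipocyte marker passed. The part of any of these in the Serpina3 differences was not tested.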

How the data were processed

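RNA of 24 HC11 cultures was hybridised to 1-colour Agilent mouse arrays. The authors deposited, per array, the intensity of each spot from Agilent Feature Extraction 11.0.1.1 (the processed signal, background-corrected by the software on each array by itself), with marks for outlier spots and spots well above background. A series matrix deposited by the authors holds quantile-normalized log2 values and ranks spots as the median signal minus background does. No column of samples from elsewhere was found (0 unused).

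For the 59305 non-control spots, log2 processed signals were quantile normalized over the 24 arrays, outlier spots (146 to 644 per array) were left out and spots of a probe averaged. A probe was well above background where at least 0.5 of its spots were marked. RefSeq accessions named 26582 probes and a supplementary table of the study alone named 21. Comparisons used limma 3.58.1 under R 4.3.3 (lmFit, then contrasts.fit and eBayes), with separate fits of the 6 -LH, 9 +LH siRNA, 9 LeGO and 15 siRNA arrays, and Benjamini-Hochberg adjustment across the 55681 probes. The fits were tested on simulated data. Tables and figures used Python 3.11.15, pandas 2.3.3 and matplotlib 3.10.9.

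The members and gene lists were chosen with earlier results of these data known. All 8 members were named, with the 3 genes of each list that passed with the largest changes and the 3 genes most like a member. Alternatives were scaling to the 75th percentile, quantile normalization per experiment, normexp background correction (offset 50), bright probes only, the methods' t-test, a trended robust prior, 1 fit of all arrays without and with the slide, a replicate block, the series matrix and leaving out each array. The number of arrays limits the precision.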

Additional observations from a re-analysis of the deposited data

How the results depend on the processing

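The count of 7 members in LeGO-1/6 against LeGO-GFP cells was 5 by the methods' t-test and 8 in 1 fit of all arrays. It was 6 with normexp, bright probes only, the replicate block or the series matrix, and 5 to 7 when 1 array was left out. Over all probes the alternatives called 13617 to 18217. The count against LeGO-DCR (6) was 5 with bright probes only and 6 to 7 in the other alternatives, with 14376 to 18616 probes called. LeGO-DCR against LeGO-GFP stayed at 0 of 8 in all alternatives, with a Serpina3f difference of -0.15 to 0.02 when 1 array was left out (0.0204 without LeGO-GFP replicate 2 and 0.0019 without LeGO-DCR replicate 3, against -0.08). For siPINC1/6 +LH the 2 calls became 0 by the methods' t-test and 0 with the replicate block, and 0 to 2 without 1 array. The siPINC -LH count of 0 became 1 with normexp (178 of all probes called) and 1 with the trended robust prior (103). It became 2 in 1 fit of all arrays without (815) and with a slide term (902). siPINC +LH (0) became 1 in 1 fit of all arrays (1103). siPINC1/6 against siPINC +LH (0) became 1 with normexp (621), bright probes only (1276), the trended robust prior (841) and the series matrix (161). It also became 1 in 1 fit of all arrays without (1196) and with a slide term (1423). The hormone count in siNEG cells (0) became 1 with the slide term, 2 within slide 1 (added after the data were seen) and 0 to 1 without 1 array (1 without siNEG +LH replicate 2). That in siPINC cells (1) became 2 with bright probes only, 0 by the methods' t-test, 2 in 1 fit of all arrays, 3 with the slide term and 1 to 2 without 1 array (2 without siNEG +LH replicate 1, siPINC1/6 +LH replicate 3 or siPINC +LH replicate 1). Over all probes the alternatives called 8958 to 15901 for hormones in siNEG cells and 11499 to 16328 in siPINC cells. The interaction count (0) became 1 with normexp, where 203 of all probes were called. The untested Serpina3f differences of 3.84, -2.12 and 2.03 (siPINC1/6 against siNEG -LH, hormones in siPINC1/6, siPINC1/6 against siPINC -LH) became 2.36, -1.59 and 1.58 with normexp and 3.09, -1.90 and 1.88 in the series matrix. The causes were not tested.

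Replicate numbers did not pair the samples, since same-numbered arrays deviated with correlations from 0.06 to 0.14 in -LH, -0.46 to 0.15 in +LH siRNA and -0.04 to 0.25 in LeGO arrays over 21265 probes, and the replicate block changed the member counts of siPINC1/6 +LH (2 to 0) and of LeGO-1/6 against LeGO-GFP (7 to 6). Over all probes, counts of calls moved by over 1.5 times. For siPINC1/6 +LH, 2140 became 733 by the methods' t-test, 850 with the replicate block, 1033 with 75th percentile scaling, 1072 in the series matrix, 3498 in 1 fit of all arrays and 3904 with bright probes only. For siPINC +LH 379 became 1 with the replicate block and at most 1103 in 1 fit of all arrays, and for siPINC1/6 against siPINC +LH 509 became 0 and at most 1423 with the slide term. For LeGO-DCR 41 became 0 with the replicate block and at most 79 with normexp, for the interaction 280 became 4 in the series matrix and at most 656 without siPINC -LH replicate 1, for siPINC -LH 0 became at most 902 with the slide term, and for hormones in siNEG 15115 became 8958 by the methods' t-test. The share of higher calls went from 81% to 91.7% for siPINC +LH and from 72.5% to 57.1% for the interaction with 75th percentile scaling, and from 54.4% to 65.8% for siPINC1/6 +LH in the series matrix. That scaling moved the median of all probes under hormones to 0.19 in siNEG and 0.23 in siPINC cells. At the methods' threshold (p under 0.01, fold over 1.8) the methods' t-test passed 5 members for LeGO-1/6 against LeGO-GFP (12.3% of all probes), 6 against LeGO-DCR (12.5%), 2 for siPINC1/6 +LH (0.986%), 2 for siPINC -LH (0.402%) and 0 for LeGO-DCR (0.524%).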
